A study of Mus musculus with 2 samples.

Results

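The genes described here write, erase or read acetyl groups on histones: 10 acetyltransferases, 2 nuclear receptor coactivators, 2 bromodomain readers, 11 zinc-dependent histone deacetylases and 5 sirtuins. They are a list of 30 symbols, fixed by name and not by their measured values, and all 30 were found once among the 27998 genes of the files. The cells came from parietal bone defects of 2 mm in wild-type C57BL/6 mice. Each defect held an implanted hydrogel, either CGG or CGG-Cit, and the tissue was taken 2 weeks after surgery, digested in 0.3% collagenase and passed through a 70 µm strainer. Each hydrogel was represented by 1 droplet library of 3' RNA, and the labels do not say how many mice went into it. Both groups therefore had a defect and a gel. No defect without a gel and no unoperated bone were analysed here. With 1 library per gel there was no test between gels, and the 95% intervals below reflect counting error alone.

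Acetylation of histone tails is set by acetyltransferases (writers) and removed by deacetylases (erasers). Bromodomain proteins (readers) bind the acetylated lysines and bring transcription factors and kinases to them. Histone deacetylases use zinc, whereas sirtuins use NAD. Acetyltransferases draw on acetyl-CoA, which links the reaction to citrate metabolism, and histone acetylation is named in the title of the series. A transcript level gives neither the activity of an enzyme nor the acetylation of any histone, and neither was measured here.

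The 2 libraries differed before any gene was compared. After filtering and removal of likely doublets, 11048 cells were kept from the CGG library at a median of 3969 UMIs (unique molecules) per cell, and 9994 cells from the CGG-Cit library at a median of 5913.5 UMIs. A UMI of Gm26870, a long noncoding RNA gene on chromosome 9, was found in 41.7% of the CGG cells and in 1.67% of the CGG-Cit cells. The libraries shared 34 cell barcodes. Cells were placed in gates by lists of marker genes that hold none of the 30 genes. 16 gates had at least 50 cells in each library and were compared, with 6508 CGG cells and 8155 CGG-Cit cells in all, while 21.5% and 5.17% of cells met the criteria of no gate. Of 1 marker checked per gate, all but 1 were highest in their own gate in both libraries. The exception was the cycling marker Mki67 in the CGG library, at 1110 CPM in cycling pre-B cells and 1609 CPM in cycling erythroid cells. Neighbouring stages shared markers, and Ltf of immature neutrophils, at 8690 CPM in the CGG library, was close to its 8011 CPM in precursors. Siglech reached 1586 and 1107 CPM (UMIs of the gene per 1000000 UMIs of the gate) in plasmacytoid dendritic cells, and Pdgfra reached 146 and 101 CPM in mesenchymal cells of the CGG and the CGG-Cit library. The mesenchymal gate was very uneven, with 3004 cells in the CGG library and 51 in the CGG-Cit library. The myeloid progenitors had a median of 7808 UMIs in the CGG library and 33550 in the CGG-Cit library. When the cells of both libraries were clustered together, different clusters held the largest part of a gate in the 2 libraries for small pre-B cells, myeloid progenitors, mature neutrophils, T cells and mesenchymal cells. Macrophages, endothelial cells, mural cells and conventional and migratory dendritic cells had enough cells in the CGG library only.

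Promoter sequences are shown for 4 genes whose levels the results turn on. Hat1 was high in cycling gates, Hdac2 was low in neutrophils, Hdac4 was high in them, and Brd2 differed between the libraries in most gates. Each run is the 250 bases before the RefSeq start on build GRCm38.p6, written 5′ to 3′ on the strand of the gene, and of 3 Brd2 starts the outermost is shown. Capitals mark CCAAT or its reverse complement ATTGG. The windows lie at chr2:71389010-71389259 on the plus strand for Hat1, chr10:36974294-36974543 on the plus strand for Hdac2, chr1:92180342-92180591 on the minus strand for Hdac4 and chr17:34122608-34122857 on the minus strand for Brd2.
Hat1: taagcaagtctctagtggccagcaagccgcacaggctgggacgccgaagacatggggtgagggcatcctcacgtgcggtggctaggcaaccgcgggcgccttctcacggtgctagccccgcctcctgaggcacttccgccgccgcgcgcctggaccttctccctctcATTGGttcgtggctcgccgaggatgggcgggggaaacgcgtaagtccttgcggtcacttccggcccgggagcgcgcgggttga
Hdac2: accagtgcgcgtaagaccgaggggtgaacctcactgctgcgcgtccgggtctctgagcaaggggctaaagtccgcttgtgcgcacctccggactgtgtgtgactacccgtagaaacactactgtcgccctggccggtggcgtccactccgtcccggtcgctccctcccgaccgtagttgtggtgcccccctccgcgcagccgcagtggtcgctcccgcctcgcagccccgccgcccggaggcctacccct
Hdac4: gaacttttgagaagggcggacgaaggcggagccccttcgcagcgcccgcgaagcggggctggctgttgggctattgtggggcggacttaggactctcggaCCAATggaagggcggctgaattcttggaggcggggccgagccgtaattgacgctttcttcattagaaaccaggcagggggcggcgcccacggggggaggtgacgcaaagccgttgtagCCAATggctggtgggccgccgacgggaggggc
Brd2: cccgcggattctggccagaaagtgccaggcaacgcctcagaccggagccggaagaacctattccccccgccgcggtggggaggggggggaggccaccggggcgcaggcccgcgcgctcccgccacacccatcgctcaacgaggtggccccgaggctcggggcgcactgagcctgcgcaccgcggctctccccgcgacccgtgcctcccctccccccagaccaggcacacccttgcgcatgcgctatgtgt
The RefSeq starts of Hat1 and Hdac4 lie inside the gene as GENCODE annotates it, 302 and 15358 bases from its outermost start, so these windows are upstream of the RefSeq transcript only. CCAAT, read on both strands, was found in 1 place in the Hat1 window and in 2 places in the Hdac4 window, and not in the windows shown for Hdac2 and Brd2. Promoter windows were matched for 25 of the 30 genes, and 12 of those 25 held CCAAT in at least 1 window, that is 13 of their 37 windows. Over all 32851 windows of this length the share was 33.8%. TTTCCCGC and TTTGGCGC, which are forms of the E2F site, and the cAMP response element TGACGTCA were found in none of the 37 windows on either strand, and in 0.895%, 0.417% and 1.55% of all windows. These matches describe letters only.

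In their levels across cell types, the 30 genes looked alike in both libraries. Over the 16 gates, the correlation of log2 levels between the libraries had a median of 0.94 over the genes, from 0.62 for Sirt6 to 0.98 for Hdac1. The gates share the depth and RNA composition of their library, and the late erythroid gate is far below the rest for nearly every gene. Without it, over 15 gates, the median was 0.89 and the lowest value was 0.38, for Kat5. For 18 of the 30 genes, the gate with the highest level was the same in both libraries. The correlations and this count were not set beside those of all genes. The highest, second and lowest gates named below are those among these 16 gates. The level map shows the shared pattern.

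**Figure D1:**
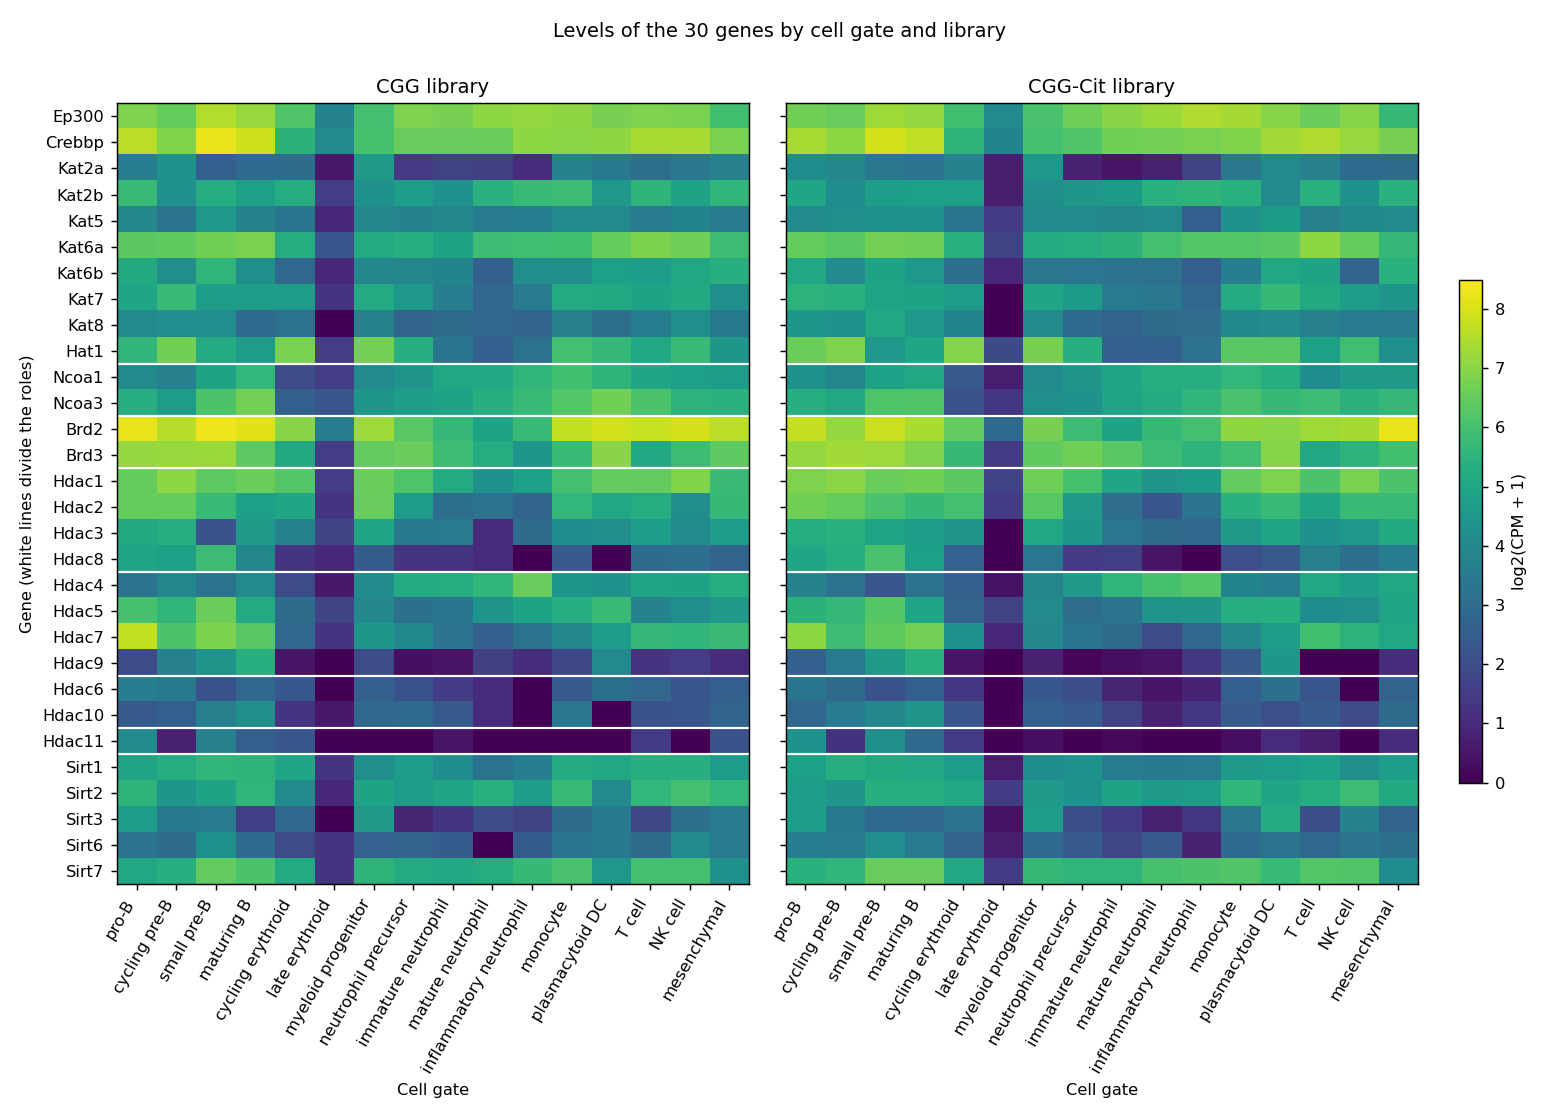
Level of each of the 30 genes, as log2(CPM + 1), in the 16 gates of the CGG library (left) and the CGG-Cit library (right), with white lines between roles. The late erythroid column is dark for nearly every gene in both libraries, Hat1 is bright in cycling erythroid cells at 109 and 120 CPM, and Hdac4 is brightest in inflammatory neutrophils at 91.4 and 75.4 CPM.

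Among the acetyltransferases, Ep300 and Crebbp, the paralogous coactivators p300 and CBP, were found in every gate. Ep300 was highest in small pre-B cells of the CGG library at 181 CPM and in inflammatory neutrophils of the CGG-Cit library at 178 CPM, and lowest in late erythroid cells at 13.04 and 15.8 CPM. Crebbp was highest in small pre-B cells of both libraries, at 299 and 246 CPM, and lowest in late erythroid cells at 14.97 and 13.3 CPM. Among the 16 gates, Kat2a, the GCN5 subunit of the SAGA complex, was highest in myeloid progenitors at 22.9 and 22.1 CPM. Endothelial cells, a gate of the CGG library alone, had 29.4 (21.8 to 38.7) CPM of it. The lowest Kat2a levels were 0.483 CPM in late erythroid cells of the CGG library and 0.419 CPM in immature neutrophils of the CGG-Cit library. Its paralogue Kat2b (PCAF) had its highest levels elsewhere, at 56.2 CPM in monocytes of the CGG library and 45.2 CPM in inflammatory neutrophils of the CGG-Cit library, against 1.93 and 0.618 CPM in late erythroid cells.

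The MYST-family writers and Hat1 each had their own order. Kat6a (MOZ) was highest in T cells of both libraries, at 113 and 131 CPM. Among the 16 gates, Kat6b (MORF) was highest in small pre-B cells of the CGG library at 46.1 CPM. In the CGG-Cit library it was highest in mesenchymal cells at 42.2 CPM, and the CGG mesenchymal cells were second at 40.2 CPM. Endothelial cells, a gate of the CGG library alone, had 41.1 CPM, and the dura-like part of the CGG mesenchymal gate had 52.9 CPM. Kat7 (HBO1), which acts in replication licensing, was highest in cycling pre-B cells of the CGG library at 51.9 CPM and in plasmacytoid dendritic cells of the CGG-Cit library at 50.9 CPM. Among the 16 gates, Kat5 (TIP60) reached only 22.2 CPM in the CGG library, in small pre-B cells. Its highest level in the CGG-Cit library was 23.8 CPM, in plasmacytoid dendritic cells. Migratory dendritic cells, a gate of the CGG library alone, had 26.5 (13.7 to 46.2) CPM of Kat5 from 12 UMIs. Kat8 (MOF) reached 17.2 CPM in natural killer cells of the CGG library and 33.7 CPM in small pre-B cells of the CGG-Cit library. These 5 genes were lowest in late erythroid cells of both libraries. There Kat6a stood at 3.86 and 2.16 CPM, Kat6b at 0.966 and 0.927 CPM and Kat5 at 0.966 and 1.85 CPM. No UMI of Kat8 was found there, which allows up to 1.45 and 0.927 CPM, and Kat7 had 1.45 CPM in the CGG library and no UMI in the CGG-Cit library, where the same limit holds. Hat1, which acetylates newly made histone H4 before it is placed on DNA, lies at chr2:71388958-71441622 and was highest in cycling erythroid cells at 109 and 120 CPM. Cycling pre-B cells followed closely at 103 and 114 CPM and myeloid progenitors at 105 and 107 CPM, while late erythroid cells had 1.93 and 2.78 CPM. In the CGG library the Hat1 intervals of these 3 gates overlapped. In the CGG-Cit library the interval of cycling erythroid cells began at 112.83 CPM, just above the end of that of myeloid progenitors at 112.77 CPM. Hat1 was as high in migratory dendritic cells, a gate of the CGG library alone, at 108 (79.9 to 143) CPM.

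The nuclear receptor coactivators Ncoa1 (SRC-1) and Ncoa3 (SRC-3) recruit acetyltransferases to hormone receptors. Ncoa1 was highest in monocytes of both libraries, at 60.03 and 48.3 CPM, and Ncoa3 in maturing B cells, at 104 and 71.7 CPM. Both were lowest in late erythroid cells, where Ncoa1 had 1.93 and 0.618 CPM and Ncoa3 3.86 and 1.54 CPM. Cycling erythroid cells were next lowest, with 2.97 and 4.16 CPM of Ncoa1 and 5.2 and 3.38 CPM of Ncoa3. Of the bromodomain readers, Brd2 was highest in small pre-B cells of the CGG library at 312 CPM and in mesenchymal cells of the CGG-Cit library at 288 CPM, and lowest in late erythroid cells at 11.1 and 6.49 CPM. Brd3 was highest in small pre-B cells of the CGG library at 148 CPM and in cycling pre-B cells of the CGG-Cit library at 159 CPM, and lowest in late erythroid cells at 1.93 and 1.85 CPM.

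Class I deacetylases other than Hdac8 form the cores of the Sin3, NuRD, CoREST and NCoR complexes. Hdac1 was highest in cycling pre-B cells, at 133 and 130 CPM. Hdac2, at chr10:36974544-37001889, was highest in myeloid progenitors of the CGG library at 90.8 CPM and in pro-B cells of the CGG-Cit library at 99.98 CPM. Hdac3, the NCoR partner, was highest in cycling pre-B cells at 40.01 and 42.4 CPM. In late erythroid cells Hdac1 had 1.93 and 2.16 CPM and Hdac2 had 1.45 and 1.85 CPM, their lowest levels, and Hdac3 had 2.41 CPM in the CGG library and no UMI in the CGG-Cit library. The lowest Hdac3 level of the CGG library was 1.01 CPM, from 1 UMI in mature neutrophils. Hdac8, which deacetylates cohesin, was highest in small pre-B cells of both libraries at 56.3 and 66.4 CPM. It had no UMI in inflammatory neutrophils of either library, which allows up to 3.52 and 2.38 CPM, and none in plasmacytoid dendritic cells of the CGG library, where the limit was 7.44 CPM.

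Class IIa deacetylases shuttle between cytoplasm and nucleus and bind MEF2 factors, and the 4 members had 4 different patterns. Hdac4, at chr1:91928779-92195699, was highest in inflammatory neutrophils at 91.4 (72.3 to 114) and 75.4 (61.0 to 92.2) CPM, followed by mature neutrophils at 47.5 and 64.9 CPM. Hdac5 was highest in small pre-B cells at 95.6 and 75.4 CPM, Hdac7 in pro-B cells at 211 and 133 CPM, and Hdac9 in maturing B cells at 39.5 and 41.3 CPM. Late erythroid cells were lowest for Hdac4 at 0.483 and 0.309 CPM, for Hdac5 at 2.41 and 2.16 CPM and for Hdac7 at 1.45 and 0.927 CPM. Hdac9 had no UMI in late erythroid cells of either library, nor in T and natural killer cells of the CGG-Cit library, where the limits were 1.89 and 2.91 CPM. In the gates of the CGG library alone, Hdac7 was also high in endothelial cells, at 150 (133 to 170) CPM.

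The remaining zinc-dependent deacetylases had few UMIs in most gates. Hdac6, the tubulin deacetylase of class IIb, did not reach the minimum for comparison in any gate. Its highest level was in pro-B cells at 11.5 and 8.81 CPM, and it had no UMI in late erythroid cells of either library. Hdac10, also of class IIb and a polyamine deacetylase, was highest in maturing B cells at 17.8 and 20.2 CPM, and had 1 UMI in late erythroid cells of the CGG library and none in those of the CGG-Cit library. Hdac11, the only class IV enzyme, was highest in pro-B cells at 15.9 and 18.9 CPM and second in small pre-B cells at 11.9 and 17.3 CPM. No UMI of Hdac11 was found in natural killer cells of either library, which allows up to 5.74 and 2.91 CPM, and none in neutrophil precursors, which allows up to 0.844 and 0.347 CPM.

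The sirtuins act in different compartments. Of the nuclear enzymes, Sirt1 was highest in small pre-B cells of the CGG library at 46.1 CPM and in cycling pre-B cells of the CGG-Cit library at 40.5 CPM. Sirt6 was highest in small pre-B cells of both libraries at 18.8 and 17.0 CPM. Sirt7, which is found in nucleoli, was highest in small pre-B cells of the CGG library at 87.1 CPM and in maturing B cells of the CGG-Cit library at 91.1 CPM. Sirt2, which is mostly cytoplasmic, was highest in natural killer cells of both libraries at 61.2 and 56.2 CPM. Sirt3 of the mitochondria was highest in pro-B cells of the CGG library at 26.0 CPM and in plasmacytoid dendritic cells of the CGG-Cit library at 36.8 CPM, with myeloid progenitors at 22.9 and 24.4 CPM. Late erythroid cells were the lowest gate for Sirt1 at 1.45 and 0.618 CPM, for Sirt2 at 0.966 and 1.85 CPM and for Sirt7 at 1.45 and 1.85 CPM. Sirt3 had no UMI in that gate of the CGG library and 0.309 CPM in the CGG-Cit library, and Sirt6 was lowest in mature neutrophils of the CGG library, with no UMI, and in late erythroid cells of the CGG-Cit library at 0.618 CPM.

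Stages of a lineage were compared within each library, and a gene was called higher or lower when its CPM differed by at least 1.5-fold in the same direction in both libraries. A gene entered the comparison only if, in each library, its CPM averaged 10 or more over the gate pair and its UMIs there came to 40 or more. A gene low in 1 gate of the pair could thus enter through the gate where it was higher. The libraries repeat the comparison, but they are not replicates of 1 condition. Stage gates were drawn from marker genes, so the order is that of the markers and not of time.

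From cycling to small pre-B cells, 10 of the 19 measured genes were higher in both libraries and 1 was lower, against 22.2% and 19.7% of all 5619 genes measured. The 10 were the writers Ep300, Crebbp, Kat2b and Kat6b, the coactivator Ncoa3, the reader Brd2, the deacetylases Hdac5, Hdac7 and Hdac8, and Sirt7. Crebbp went from 117 to 299 CPM in the CGG library, a ratio of 2.56 (2.06 to 3.19), and from 133 to 246 CPM in the CGG-Cit library, a ratio of 1.84 (1.68 to 2.01). Hat1 was the gene that was lower, with 103 and 35.8 CPM in the CGG library, a ratio of 0.347 (0.209 to 0.551), and 114 and 21.9 CPM in the CGG-Cit library, a ratio of 0.193 (0.150 to 0.245). These are shares of the RNA of a gate. Cycling pre-B cells had a median of 11135 and 8777.5 UMIs per cell and small pre-B cells 2361.5 and 2685 UMIs. Per 100 cells Crebbp had 169 and 165 UMIs in cycling pre-B cells against 75.4 and 68.6 UMIs in small pre-B cells of the CGG and the CGG-Cit library. When every cell counted equally, the number higher was 4, namely Crebbp, Kat6b, Ncoa3 and Sirt7, and Hat1 was still lower, against 17.1% higher and 18.2% lower over all genes.

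Between pro-B and cycling pre-B cells, no gene of 19 was higher in the cycling cells in both libraries and 4 were lower, against 6.66% and 11.5% of 5762 genes. Hdac7, which represses non-lymphoid genes in B-cell precursors, was the most different, at 211 against 68.1 CPM in the CGG library and 133 against 55.3 CPM in the CGG-Cit library, with ratios of 0.323 (0.247 to 0.421) and 0.414 (0.360 to 0.478). Kat2b, Kat6b and Brd2 were the other 3. When every cell counted equally, 2 genes were higher in the cycling cells, Hat1 and Sirt1, against 13.1% of all genes, and 5 were lower, against 16.5%. Between small pre-B and maturing B cells, 1 of 20 genes was higher and 2 were lower, against 5.89% and 6.17% of 4909 genes. Hdac9 was higher in maturing B cells, at 20.5 against 39.5 CPM and 23.5 against 41.3 CPM, and its ratio of 1.93 in the CGG library had an interval that reached 1 (0.993 to 4.04). Its ratio in the CGG-Cit library was 1.76 (1.29 to 2.40). Hdac8 was lower, at ratios of 0.246 (0.121 to 0.472) and 0.402 (0.301 to 0.532), and Hdac5 was lower, at 0.372 (0.238 to 0.576) and 0.424 (0.325 to 0.549). The stage plot of the B lineage shows Hdac8 and Hdac9 with the same highest stage in both libraries.

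**Figure D2:**
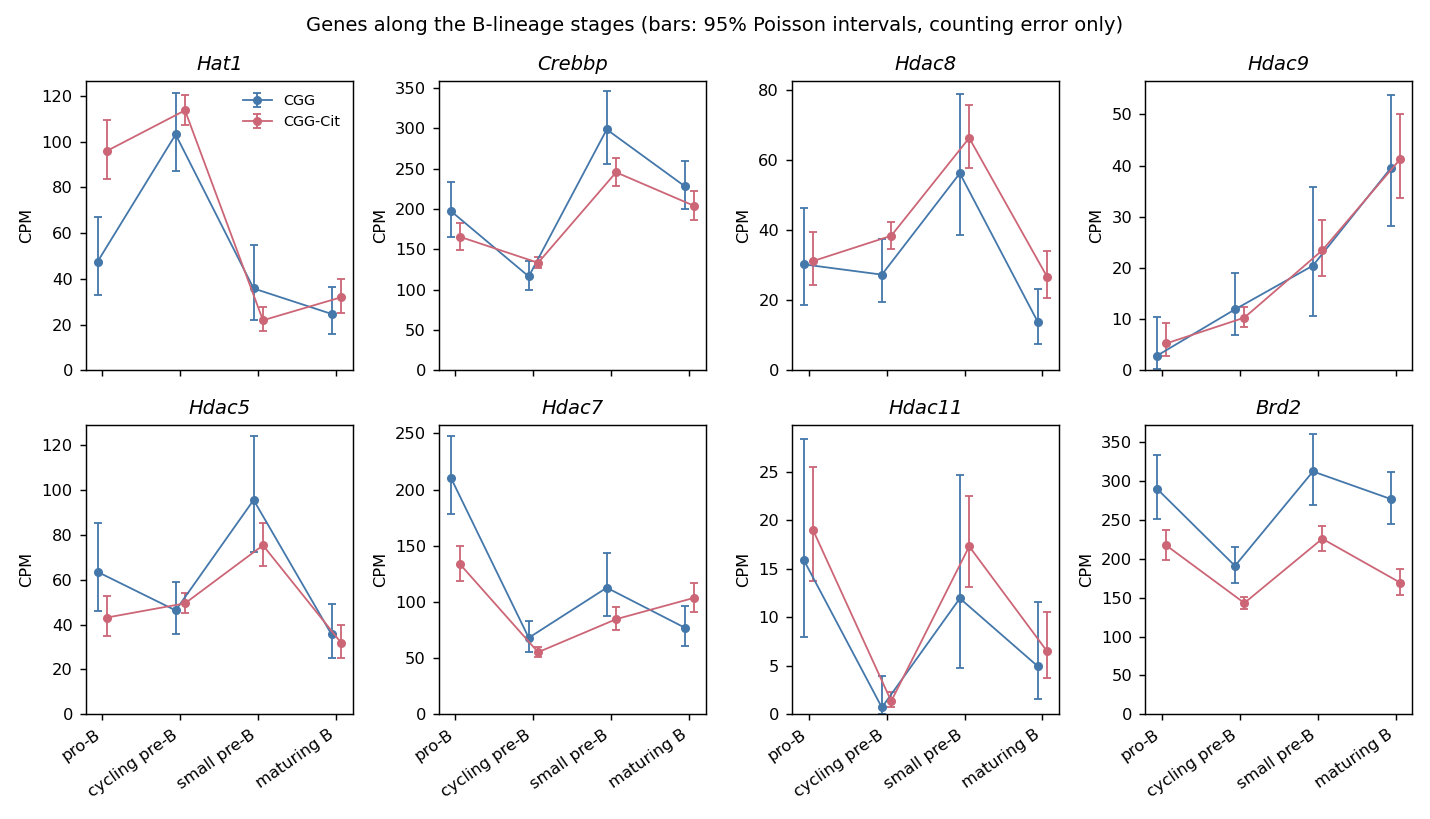
Level in CPM of 8 of the genes at 4 B-lineage stages, in the CGG library (blue) and the CGG-Cit library (red), with 95% Poisson intervals for counting error. Hdac9 is highest in maturing B cells of both libraries at 39.5 and 41.3 CPM, Hdac8 peaks in small pre-B cells, Hat1 peaks in cycling pre-B cells, and Brd2 is higher in the CGG library at all 4 stages.

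In the neutrophil lineage, Hat1, Hdac1 and Hdac2 were lower and Hdac5, Kat2b, Ncoa1 and Ncoa3 higher in mature cells. From neutrophil precursors to mature neutrophils, 4 of 18 measured genes were higher in both libraries and 6 were lower, against 20.5% and 36.1% of all 5106 genes measured, so the counts are near the background. The 6 that were lower were Hat1, Kat7, Brd3, Hdac1, Hdac2 and Sirt1. Hat1 had 39.7 and 5.05 CPM in the CGG library, a ratio of 0.127 (0.0408 to 0.304), and 39.4 and 5.26 CPM in the CGG-Cit library, a ratio of 0.134 (0.0739 to 0.223). Hdac1 had 70.0 and 18.2 CPM in the CGG library and 64.1 and 20.7 CPM in the CGG-Cit library, with ratios of 0.260 (0.151 to 0.419) and 0.323 (0.242 to 0.423). The 4 that were higher were Kat2b, Ncoa1, Ncoa3 and Hdac5. Hdac5 had 7.88 and 20.2 CPM in the CGG library, a ratio of 2.57 (1.37 to 4.72), and 7.16 and 19.996 CPM in the CGG-Cit library, a ratio of 2.79 (1.91 to 4.06). All 10 calls held when genes above 1% of a gate's UMIs were left out of the total, where 18.9% and 39.1% of all genes were higher and lower, and when every cell counted equally, where the shares were 20.7% and 33.6%.

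The step before it depended on the scaling. From myeloid progenitors to neutrophil precursors, 1 of 22 genes was higher, Hdac4, and 7 were lower, against 11.6% and 48.6% of 6552 genes. With genes above 1% of UMIs left out of the total, 10 were higher and 4 were lower, against 29.9% and 23.8% of all genes under that total. With every cell counted equally 2 were higher, Ep300 and Hdac4, and 7 lower, against 9.66% and 46.7%. The 4 lower genes were Kat2a, Hat1, Hdac2 and Sirt3, which were lower under both totals. Kat2a had 22.9 and 1.69 CPM in the CGG library, a ratio of 0.0736 (0.0262 to 0.168), and 22.1 and 0.809 CPM in the CGG-Cit library, a ratio of 0.0366 (0.0146 to 0.0761). Hdac4 was higher under both totals, with 16.02 and 36.0 CPM in the CGG library, a ratio of 2.25 (1.61 to 3.17), and 13.5 and 23.0 CPM in the CGG-Cit library, a ratio of 1.71 (1.40 to 2.09). Between mature and inflammatory neutrophils no gene of 13 was higher or lower in both libraries, against 5.21% and 0.95% of 3264 genes. In the CGG library most cells of both gates lay in the same cluster, 141 of 264 and 228 of 244 cells.

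**Figure D3:**
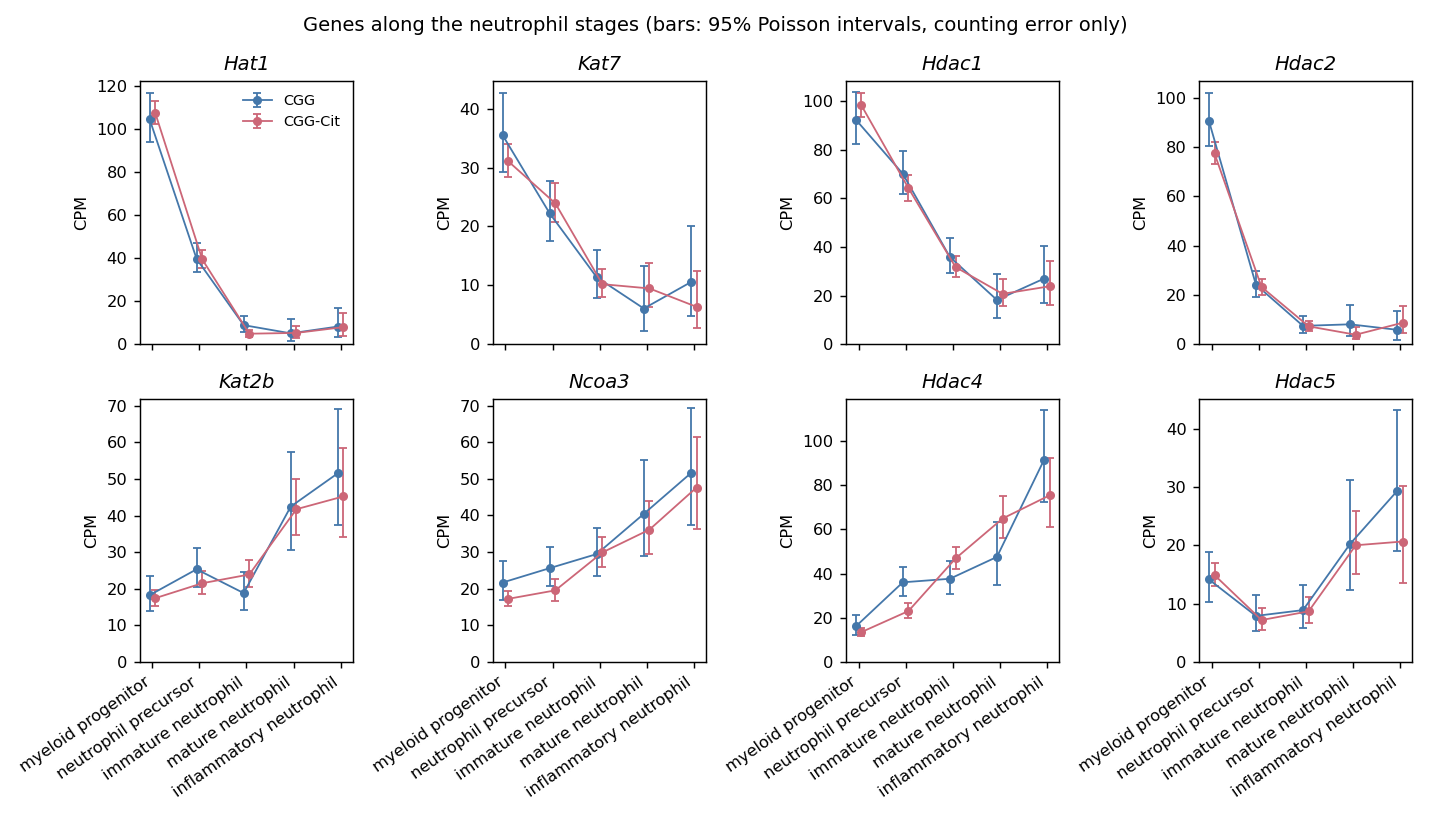
Level in CPM of 8 of the genes from myeloid progenitors to inflammatory neutrophils, in the CGG library (blue) and the CGG-Cit library (red), with 95% Poisson intervals for counting error. Hat1 goes from 105 and 107 CPM in progenitors to 5.05 and 5.26 CPM in mature neutrophils, and Hdac4 reaches 91.4 and 75.4 CPM in inflammatory neutrophils.

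Monocytes had more Hat1 and less Hdac4 than mature neutrophils. Of 17 genes measured, 8 were higher in monocytes in both libraries and 1 was lower, against 58.6% and 12.5% of 5500 genes. Hat1 had the highest ratios, at 12 (4.97 to 37.8) in the CGG library and 14.9 (8.97 to 26.8) in the CGG-Cit library, followed by Hdac2 in the CGG-Cit library at 10.9 (6.02 to 22.1). Hdac4 was the gene that was lower in monocytes, with 47.5 against 21.1 CPM in the CGG library, a ratio of 0.444 (0.275 to 0.707), and 64.9 against 13.2 CPM in the CGG-Cit library, a ratio of 0.203 (0.158 to 0.259). With genes above 1% of UMIs left out of the total, 5 were higher, namely Kat7, Hat1, Brd2, Hdac1 and Hdac2, and Hdac4 was still lower, against 42.3% and 22.0% of all genes.

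In the erythroid lineage, all 12 genes measured in both libraries were lower in late than in cycling erythroid cells and none was higher, against 94.1% and 1.08% of 3719 genes, so the count is that of nearly all transcripts. Crebbp had 42.7 and 14.97 CPM in the CGG library, a ratio of 0.35 (0.228 to 0.525), and 45.3 and 13.3 CPM in the CGG-Cit library, a ratio of 0.293 (0.209 to 0.404). Hat1 had ratios of 0.0177 (0.00480 to 0.0459) and 0.0231 (0.0105 to 0.0440). With genes above 1% of UMIs left out of the total, 9 genes were lower and Crebbp turned to higher, at ratios of 2.299 (1.49 to 3.44) in the CGG library and 2.504 (1.78 to 3.44) in the CGG-Cit library. Ep300 and Kat6a were then no longer past 1.5-fold in both libraries. Under that total 13% of all genes were higher and 55.7% lower. Per 100 cells, Crebbp had 57.2 and 94.3 UMIs in cycling erythroid cells and 13.1 and 15.9 UMIs in late erythroid cells.

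Between the libraries, most of these genes were close in most gates. A gene was measured in a gate when its CPM averaged at least 10 over the libraries and it had at least 40 UMIs in both together, and a ratio of CGG-Cit to CGG of at least 1.5, or of 0.667 or less, was called higher or lower. This gave 299 measured pairs of a gene and a gate. Of these, 22 were higher in the CGG-Cit library, 21 were lower and 256 lay within 1.5-fold. The shares over all genes, given below with the related lists, were near these. The counts are therefore not read as a result about the 30 genes. In each gate the median log2 ratio of the genes lay between -0.18 and 0.21, and that of all genes measured between -0.09 and 0.31. Because the minimum was on the mean, a gene low in either library could enter through the other. For 3 of the pairs the interval lay wholly past 1.5-fold, and they are given first. Of these, Hdac3 in small pre-B cells, at 3.41 CPM, and Hdac7 in cycling erythroid cells, at 5.95 CPM, were below 10 CPM in the CGG library. They met the minimum only through the CGG-Cit library, where they were higher. The same holds for Kat5 in cycling pre-B cells (8.42 CPM) and Hdac3 in neutrophil precursors (9.84 CPM). It also holds for Kat8 in maturing B cells (6.92 CPM) and cycling erythroid cells (8.18 CPM). Among pairs called lower, Hdac7 in neutrophil precursors (8.78 CPM) and Kat6b in myeloid progenitors (9.32 CPM) were below 10 CPM in the CGG-Cit library.

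In small pre-B cells Hdac3 had 2 UMIs in the CGG library (3.41 CPM) and 97 UMIs in the CGG-Cit library (29.96 CPM), a ratio of 8.78 with a counting interval of 2.37 to 73.5. Hdac3 did not differ like this in the stages beside it, with 40.01 and 42.4 CPM in cycling pre-B cells and 22.7 and 25.5 CPM in maturing B cells. The small pre-B cells of the libraries lay in different clusters, with 194 of 232 CGG cells in cluster 26, which held no CGG-Cit cell of this gate, and 1083 of 1159 CGG-Cit cells in cluster 34, which held 21 CGG cells. Both CGG UMIs of Hdac3 were in cluster 26, and the 21 CGG cells of cluster 34 had none. With cells taken from clusters instead of gates the ratio was 4.21, and it compares much the same separate clusters. In cycling erythroid cells Hdac7 had 5.95 and 19.8 CPM, a ratio of 3.32 (1.98 to 5.97), and Hdac2 had 32.0 and 61.5 CPM, a ratio of 1.92 (1.53 to 2.45). In that gate the median of all genes was itself shifted by 0.31 on the log2 scale toward the CGG-Cit library. Under a scaling that removes this shift, the ratio of Hdac7 was 2.57 and that of Hdac2 was 1.49, below the fold. With cells weighted equally the ratio of Hdac7 was 1.94, among cells without a Gm26870 UMI it was 7.75, and with likely doublets kept the ratio of Hdac2 was 1.48.

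In the B lineage, 1 of 25 genes measured in pro-B cells was higher in the CGG-Cit library and 3 were lower, against 10.9% and 10.6% of all genes measured. Hat1 was higher, at 47.6 and 96.0 CPM in the CGG and the CGG-Cit library, a ratio of 2.02 (1.39 to 3.003), and Kat2b, Hdac7 and Sirt2 were lower, Hdac7 at 0.633 (0.518 to 0.777). In cycling pre-B cells 1 of 25 genes was higher and 1 lower, against 4.18% and 5.45%. Kat5 had 8.42 CPM (12 UMIs) and 17.9 CPM, a ratio of 2.13 (1.19 to 4.20), and Hdac4 had a ratio of 0.577 (0.351 to 0.993). In small pre-B cells 2 of 26 genes were higher and 2 lower, against 9.56% and 11.4%, with Kat8 higher beside Hdac3, and Kat6b and Hat1 lower with intervals that reached 1. In maturing B cells 3 of 24 genes were higher and 1 lower, against 12.1% and 10.2%. Kat8 had 6.92 and 22.3 CPM, a ratio of 3.22 (1.46 to 8.38), Hdac2 and Hdac8 had ratios of 1.84 (1.22 to 2.88) and 1.93 (1.07 to 3.72), and Brd2 was the lower gene.

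In cycling erythroid cells 5 of 16 genes were higher and none was lower, against 32.4% and 6.11%, so the share is that of all genes. Besides Hdac7 and Hdac2 these were Sirt2 at 2.08 (1.498 to 2.94), Kat8 at 1.64 (1.03 to 2.73) and Hdac3 at 1.54 (1.06 to 2.29). With the shift removed, 2 erythroid pairs were higher and 4 were lower, and the share of all genes under that scaling is not given here. In late erythroid cells only Ep300 and Crebbp were measured and neither was past 1.5-fold, against 8.18% and 15.8%. In myeloid progenitors, led by cluster 25 in the CGG library and cluster 39 in the CGG-Cit library, none of 24 genes was higher and 1 was lower, against 1.9% and 7.19%, and the lower gene was Kat6b at 0.645 (0.460 to 0.92).

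Among the neutrophil gates, 1 of 20 genes in precursors was higher and 2 were lower, against 3.83% and 9.7%. Hdac3 was higher, at 9.84 and 21.1 CPM, a ratio of 2.15 (1.49 to 3.18), and Hdac4 and Hdac7 were lower, at 0.639 (0.509 to 0.804) and 0.600 (0.416 to 0.872). In immature neutrophils none of 16 was higher and 2 were lower, Brd2 and Kat6b, against 4.72% and 13.7%. Cluster 5 held most inflammatory neutrophils of both libraries (228 of 244 and 306 of 382 cells) and also 141 of the 264 mature neutrophils of the CGG library. In mature neutrophils, mostly of cluster 5 in the CGG library and cluster 6 in the CGG-Cit library, 4 of 14 were higher and 1 lower, against 11.1% and 11.9%. Sirt7 had 37.4 and 63.8 CPM, a ratio of 1.71 (1.19 to 2.50), beside Brd2, Brd3 and Kat5, of which the interval of Kat5 reached below 1, and Sirt2 was lower at 0.550 (0.367 to 0.834). In inflammatory neutrophils 1 of 13 was higher and none was lower, against 8.87% and 14.6%. That gene was Brd3, at 21.1 and 44.5 CPM, a ratio of 2.11 (1.22 to 3.81).

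In monocytes none of 23 genes was higher and 3 were lower, against 10.2% and 9.88%. The 3 were Brd2, Sirt1 at 0.637 (0.471 to 0.873) and Hdac4 at 0.625 (0.419 to 0.954). Plasmacytoid dendritic cells had 51 and 91 cells, and 3 of 14 genes were higher and 2 lower, against 18.3% and 12.6%. Ncoa3 was lower there at 0.5 (0.322 to 0.780), as was Brd2, while Sirt7 was higher at 2.38 (1.15 to 5.50), and the intervals of Hat1 and Hdac2 reached below 1. In T cells, led by cluster 24 in the CGG library and cluster 42 in the CGG-Cit library, none of 22 genes was higher and 1 was lower, against 5.51% and 12.4%. It was Ncoa1, at 31.5 and 16.4 CPM, a ratio of 0.520 (0.322 to 0.816). In natural killer cells 1 of 14 was higher and 1 lower, against 9.46% and 9.55%. Hdac2 had 9 and 54 UMIs there, a ratio of 3.04 (1.49 to 7.01), and Brd2 was lower.

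The mesenchymal gate was mostly fibroblasts and dura-like cells, led by cluster 0 in the CGG library and cluster 12 in the CGG-Cit library. It rests on 51 cells of the CGG-Cit library, 28 of them dura-like, 17 Sfrp2-positive fibroblasts and 3 of the osteoblast lineage, against 726, 1825 and 70 such cells in the CGG library. None of 21 genes was higher and 1 was lower, against 9.04% and 10.5%. The lower gene was Hdac7, at 55.1 and 32.2 CPM, a ratio of 0.585 (0.390 to 0.844). Within the CGG library Hdac7 had 68.8 CPM in the fibroblasts and 29.6 CPM in the dura-like cells. The part of the makeup of the gate in the ratio was not tested. In the CGG library the 70 osteoblast-lineage cells had 59.7 CPM of Ep300, 89.5 CPM of Crebbp, 57.4 CPM of Hdac1 and 58.5 CPM of Hdac2, with intervals that overlapped those of the fibroblasts and the dura-like cells. Hdac7 was at 16.1 CPM there, and the CGG-Cit library had 3 such cells, too few to compare.

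**Figure D4:**
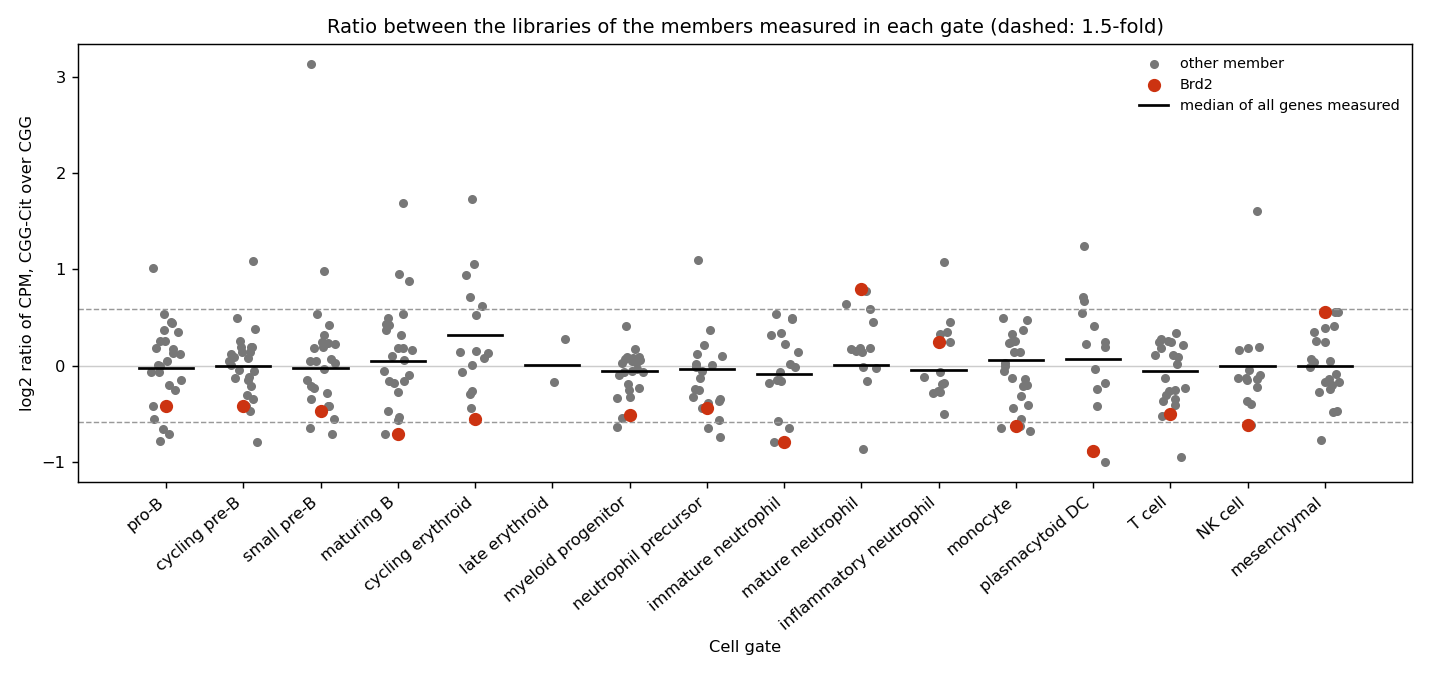
log2 ratio of CPM, CGG-Cit over CGG, for each of the 30 genes measured in each of the 16 gates (grey points, Brd2 in red), with the median of all genes measured (black bars) and dashed lines at 1.5-fold. Of 299 points 256 lie within the dashed lines, and the shares over all genes are given in the text. Brd2 lies below 0 in 12 of the 15 gates in which it was measured.

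Brd2 was the member that differed between the libraries in most gates. Brd2 binds acetylated histone H4 and lies at chr17:34112023-34122634. Of the 15 gates in which it was measured, its level was lower in the CGG-Cit library in 12, and the interval lay below 1 in each of these 12. It was lower in all 4 B-lineage gates, for example at 312 (269 to 361) and 226 (210 to 243) CPM in small pre-B cells and at 277 and 169 CPM in maturing B cells, a ratio of 0.611 (0.524 to 0.714). In other leukocytes it had 210 and 136 CPM in monocytes, 218 and 154 CPM in T cells, 249 and 163 CPM in natural killer cells and 241 and 130 CPM in plasmacytoid dendritic cells, where the ratio was lowest at 0.540 (0.410 to 0.713). It was also lower in the CGG-Cit library in cycling erythroid cells, at 127 and 86.8 CPM, in myeloid progenitors, at 152 and 107 CPM, and in neutrophil precursors, at 76.5 and 56.3 CPM. In the 3 remaining gates it was higher in the CGG-Cit library. These were mature neutrophils at 29.3 (19.6 to 42.1) and 50.9 (42.9 to 59.9) CPM, a ratio of 1.74 (1.16 to 2.68), inflammatory neutrophils at 52.7 and 62.7 CPM and mesenchymal cells at 195 and 288 CPM. With cells taken from clusters the ratio in mature neutrophils was 1.04, and with likely doublets kept it was 1.31. The gates share their libraries and are not independent, and the count of 12 was not set beside that of all genes.

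The size of the difference was moderate. Brd2 was past 1.5-fold in 6 of the 15 gates, 5 of them lower (maturing B cells, immature neutrophils, monocytes, plasmacytoid dendritic cells and natural killer cells), and the median ratio over the 15 gates was 0.707. With cells taken from clusters, the ratios of maturing B cells, immature neutrophils and monocytes were 0.678, 0.694 and 0.676, inside the fold. The count of 12 lower gates held under all alternatives tried except without cells holding a Gm26870 UMI, which gave no value in 2 gates and left 11. Its paralogue Brd3 was above 1 in 11 of 15 gates, and its median ratio was 1.09. Genes of the immediate early response to cell stress and tissue digestion were read beside Brd2, as a list chosen after values were seen (Fos, Fosb, Jun, Junb, Egr1, Ier2, Atf3 and Dusp1). Their summed level was lower in the CGG-Cit library in 9 of the 12 gates in which Brd2 was lower, and higher in all 3 in which Brd2 was higher. In mature neutrophils the sum was 5302 and 14260 CPM. The 3 gates that went apart were pro-B cells, neutrophil precursors and immature neutrophils, and in immature neutrophils the sum had a ratio of 1.71 (1.67 to 1.75) while that of Brd2 was 0.578 (0.463 to 0.722). The part of the immediate early response in the Brd2 difference was not tested. Brd2 overlaps H2-DMa on the other strand over 3094 bases, and the sources used here do not say whether counting was by strand. H2-DMa was higher in the CGG-Cit library in 6 of the 12 gates in which Brd2 was lower.

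**Figure D5:**
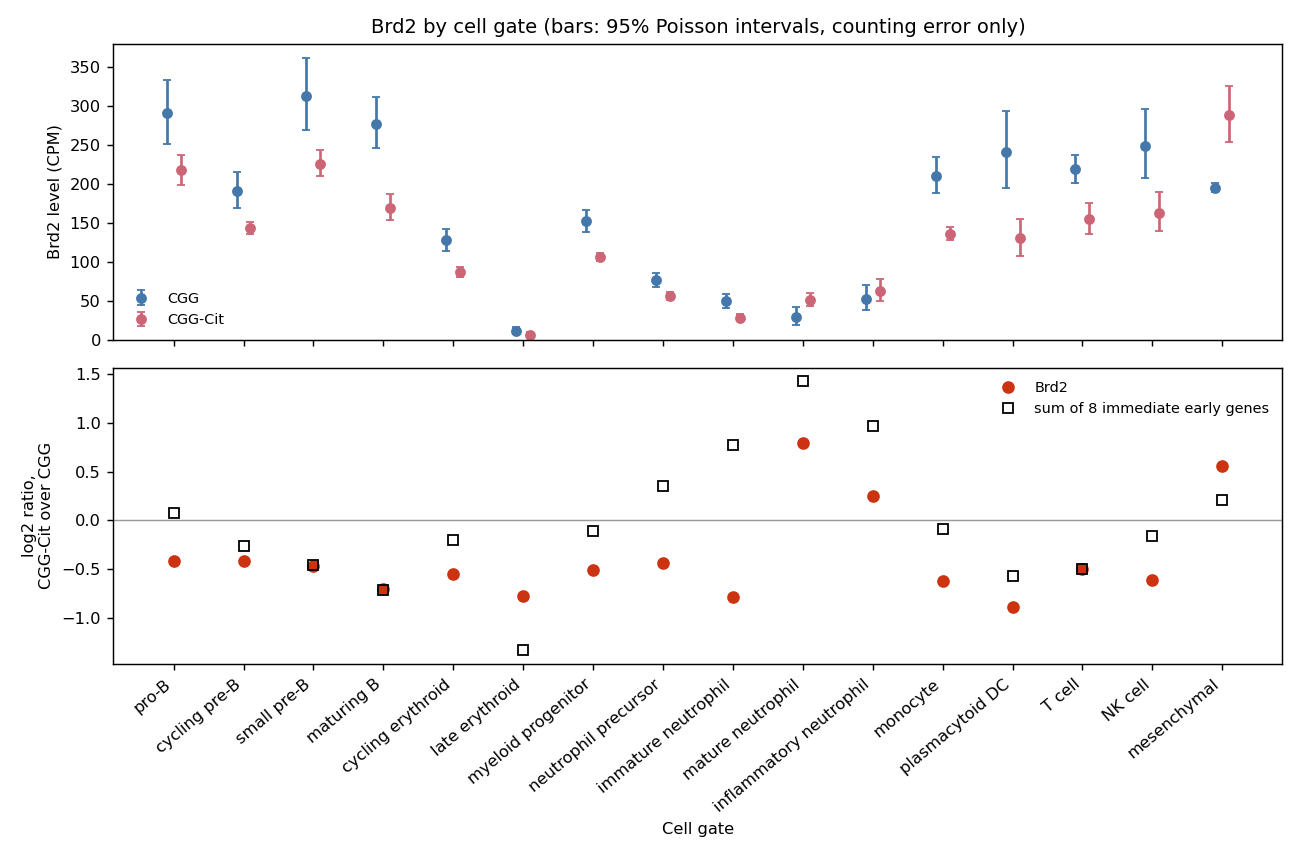
Top, Brd2 level in CPM by gate in the CGG library (blue) and the CGG-Cit library (red), with 95% Poisson intervals for counting error. Bottom, log2 ratio of CGG-Cit to CGG for Brd2 (red) and for the summed level of 8 immediate early genes (open squares). The blue points lie above the red ones in the lymphoid and progenitor gates, and both ratios lie above 0 in mature and inflammatory neutrophils and in mesenchymal cells.

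Other members lay on one side of 1 in most gates, mostly within the fold. Sirt7 was above 1 in 13 of 15 gates, with an interval above 1 in 5 and a median ratio of 1.22. Kat8 was above 1 in all 8 gates in which it was measured, with an interval above 1 in 3, and Hdac3 in 9 of 10, with an interval above 1 in 3. In the other direction, Kat2b was below 1 in 12 of 13 gates, Sirt2 in 12 of 14 and Sirt1 in 9 of 11, with intervals below 1 in 3, 2 and 2 gates. In gates below the minimum, Kat8 went both ways. It had 17.2 and 10.7 CPM in natural killer cells and 7.44 and 16.2 CPM in plasmacytoid dendritic cells of the CGG and the CGG-Cit library, from few UMIs. Ep300 and Crebbp were measured in all 16 gates and passed 1.5-fold in none, with ratios from 0.831 to 1.25 for Ep300 and from 0.790 to 1.17 for Crebbp. The gates come from the same 2 libraries and are not independent. Sirt7, Kat8, Hdac3, Kat2b, Sirt2 and Sirt1 were named for their counts, which were not set beside those of all genes.

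The partners of these enzymes were read from 4 lists of related genes. Over all genes measured, 9.76% of the pairs of a gene and a gate were higher in the CGG-Cit library and 10.2% were lower, with 28.7% and 7.58% in the erythroid gates and 6.77% and 12.2% in the neutrophil gates. Of 36 subunits of acetyltransferase complexes, 408 pairs of a gene and a gate were measured, with 37 higher in the CGG-Cit library and 18 lower. Of 31 subunits of deacetylase complexes, 409 pairs were measured, with 36 higher and 7 lower. Of 28 other acetyl-lysine readers, 377 pairs gave 27 higher and 20 lower, and of 9 other writers and erasers, 77 pairs gave 2 higher and 8 lower. In the erythroid gates 10 of 31 pairs of acetyltransferase subunits were higher and 1 lower, with a median log2 ratio of 0.28, near the 28.7% of all genes that were higher in these gates. Ruvbl2, a helicase of the TIP60 complex, had 13.8 and 48.1 CPM in cycling erythroid cells, a ratio of 3.50 (2.49 to 5.05), and its partner Ruvbl1 had 50.2 and 94.97 CPM, a ratio of 1.89 (1.57 to 2.29). Brpf3, a subunit of the HBO1 and MOZ complexes, was the lower gene there at 0.652 (0.563 to 0.756).

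In the neutrophil gates, 10 of 93 pairs of deacetylase subunits were higher and 3 lower. Sap30 of the Sin3 complex had 11.1 and 37.9 CPM in mature neutrophils, a ratio of 3.41 (1.83 to 7.03), and was also higher in monocytes, at 102 and 179 CPM, a ratio of 1.76 (1.49 to 2.09). Of the readers, Taf1 of TFIID was lower in inflammatory neutrophils at 35.2 and 7.94 CPM, a ratio of 0.226 (0.0985 to 0.475). In the B lineage, Atad2, a bromodomain ATPase, was higher in pro-B cells at 93.8 and 181 CPM, a ratio of 1.93 (1.48 to 2.55), while Clock, a circadian factor with acetyltransferase activity, was lower in maturing B cells at 31.6 and 13.4 CPM, a ratio of 0.422 (0.252 to 0.709). In mesenchymal cells Ing2, a Sin3 subunit that reads methylated histone H3, had 22.3 and 43.3 CPM, a ratio of 1.94 (1.37 to 2.69), and Atad2 had 28.1 and 10.0 CPM, a ratio of 0.355 (0.162 to 0.678). In myeloid progenitors only Tada3, a SAGA subunit, was past 1.5-fold among all 4 lists, at 8.48 and 15.9 CPM, a ratio of 1.88 (1.26 to 2.91).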

How the data were processed

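Droplet 3' RNA was sequenced from 1 library per hydrogel. The values the authors deposited are unnormalized UMI counts for each gene in each barcode. The processing tool was Cell Ranger with build mm10, version 3.0 per the submitters' processing notes and 4.0.0 per the file headers. The labels leave the kit version open between v2 and v3. Barcodes with at least 200 genes and at most 20% mitochondrial UMIs were kept. Doublets were marked with Scrublet in scanpy 1.11.5. In the CGG library its own threshold marked 1 barcode and had not worked, so the top 0.8% per 1000 barcodes by score were removed (1231 cells), against 537 cells by its own threshold in the CGG-Cit library. Cells were placed by lists of marker genes, and the cut-offs of the score were set after seeing the data. 90 and 108 cells lay near the main cut-off. UMIs were summed per gate and library. Levels have exact Poisson intervals and ratios exact binomial (Clopper-Pearson) intervals, from scipy 1.17.1. A count of 0 allows up to 3 UMIs. No test was possible between single libraries.

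Genes were named where the ratio interval lay past 1.5-fold, at their highest and lowest gate, and, in the related lists, up to 3 each way per lineage; other named ratios were chosen after their values were seen. The members and lists were chosen with earlier results of these data known. Positions are from GENCODE vM21 (GRCm38). Related genes Mideas and Kat14 were not matched. The calculation of ratios and their intervals was tested on simulated sums of UMIs with counting error alone. Gating, doublet removal and clustering were not part of that test.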

Additional observations from a re-analysis of the deposited data

How the results depend on the processing

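No paired analysis was possible because each gel had 1 library and no test was made. The counts of pairs of a gene and a gate below are given without the share of all genes at the same setting. They are therefore not read as a result about these genes. Of the pairs of a gene and a gate, a fold of 2 in place of 1.5 left 10 higher and 0 lower over all gates: 4 and 0 in the B lineage, 2 higher in erythroid cells, 2 and 0 in neutrophils, 2 and 0 in other leukocytes, 0 lower in myeloid progenitors and 0 lower in mesenchymal cells. In erythroid cells, where 5 pairs were higher and 0 lower, keeping doublets gave 3 and 1, median-of-ratios scaling 2 and 4, leaving out dominant genes 3 and 3, equal weighting of cells 3 and 1, and clusters in place of gates 2 lower. Clusters gave 12 higher pairs in the B lineage (7 by gates) and 4 lower in other leukocytes (7 by gates), and a median log2 ratio of -1.18 in late erythroid cells, against 0.05 by gates, a change of sign over the few genes measured there. Cells without a Gm26870 UMI, an alternative chosen after seeing the data, gave 12 higher in the B lineage, 2 higher and 3 lower in other leukocytes and 2 lower in myeloid progenitors. In that gate equal weighting also gave 2 lower, and keeping doublets or median-of-ratios scaling gave 0. Neutrophils had 3 lower pairs with doublets kept and 3 without dominant genes (5 in the main count), and mesenchymal cells had 3 higher and 2 lower under equal weighting (0 and 1). Of the stage counts, equal weighting gave 2 higher in cycling pre-B than pro-B cells, 4 in small pre-B cells and 2 in neutrophil precursors. Without dominant genes, 1 was higher in late erythroid cells (Crebbp, lower with all UMIs in the total), 10 were higher and 4 lower in neutrophil precursors, and 5 were higher in monocytes. The cause of these changes was not tested. No value could be had for mesenchymal cells with at most 10% mitochondrial UMIs, a stricter gate or no Gm26870 UMI, nor for plasmacytoid dendritic cells without that UMI. Depth was limited by the 51 mesenchymal cells of the CGG-Cit library and the 51 plasmacytoid dendritic cells of the CGG library.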
